A study of Mus musculus with 48 samples.

Results

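Arc, Npas4, Egr1, Egr2, Egr3, Egr4, Nr4a1, Nr4a2 and Nr4a3 are 9 genes that neurons switch on within minutes of activity, and their rows were taken by symbol from among the 54838 genes counted in every library. Of these 9, 8 were measured and tested. Egr2 (ENSMUSG00000037868) was listed at 0 in all 48 libraries, as was its neighbour Ado, and no level or test is given for it. The libraries hold ribosome-bound messenger RNA from mouse nucleus accumbens, pulled down through a haemagglutinin-tagged Rpl22 that Cre recombinase switches on (RiboTag). D1 libraries came from Drd1Cre x Rpl22HA mice, labelled as Drd1 neurons, and D2 libraries from A2ACre x Rpl22HA mice, labelled as Drd2 neurons, in which the driver is that of the adenosine receptor gene Adora2a. All groups thus carry the tagged Rpl22 and a Cre, and each cell type came from its own Cre line, so cell type and mouse line cannot be told apart. Male and female mice of both lines were in fentanyl abstinence, with tissue taken on day 10, or in water groups, labelled water abstinence. That made 8 groups of cell type, sex and treatment with 6 libraries each. Each library pooled 4 mice, so each p-value speaks of pools, and the labels used here give neither strain nor age.

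Synaptic input raises calcium and cyclic AMP in a neuron, and kinases then act on CREB, SRF and MEF2, factors already bound at the promoters of such genes. The genes are copied without new protein synthesis, which is why they serve as markers of recent activity. Arc encodes a protein of dendrites that takes part in the removal of AMPA receptors from synapses. Npas4 is a basic helix-loop-helix factor that depends on calcium influx and shapes inhibitory synapses. The Egr genes encode zinc finger factors, of which Egr1, Egr2 and Egr3 bind the corepressors Nab1 and Nab2. The Nr4a genes encode orphan nuclear receptors that act without a known hormone. Nr4a2, also called Nurr1, is best known as a factor of midbrain dopamine neurons and is also found in neurons of the claustrum and deep cortex. In the striatum these genes respond to dopamine and to drugs of abuse.

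The promoters of 4 members are shown because 2 of them, Egr4 and Nr4a1, varied together between libraries, while Nr4a2 and Nr4a3 were the members higher in D1 than in D2. They come from RefSeq on GRCm38.p6 and run 5′ to 3′ on the gene's strand. Those of Egr4, Nr4a1 and Nr4a2 are the 250 bases up to the base before the start site of the RefSeq entry. For Nr4a1 this start lies inside the span that GENCODE gives the gene, so the window is not at the gene's first annotated base. Capitals mark TGACG, the core of the cyclic AMP response element that CREB recognises, or CGTCA, the same core on the other strand. The windows lie at chr6:85513590-85513839 (minus strand) for Egr4, chr15:101266596-101266845 (plus strand) for Nr4a1 and chr2:57124004-57124253 (minus strand) for Nr4a2. For Nr4a3 only the 98 bases outside annotated exons are shown, chr4:48045055-48045152 (plus strand), and the 152 bases next to the start are not.
Egr4: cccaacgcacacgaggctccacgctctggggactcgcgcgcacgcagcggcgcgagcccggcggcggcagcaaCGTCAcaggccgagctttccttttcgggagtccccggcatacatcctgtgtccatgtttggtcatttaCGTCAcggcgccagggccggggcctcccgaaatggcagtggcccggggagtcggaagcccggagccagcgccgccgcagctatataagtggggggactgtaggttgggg
Nr4a1: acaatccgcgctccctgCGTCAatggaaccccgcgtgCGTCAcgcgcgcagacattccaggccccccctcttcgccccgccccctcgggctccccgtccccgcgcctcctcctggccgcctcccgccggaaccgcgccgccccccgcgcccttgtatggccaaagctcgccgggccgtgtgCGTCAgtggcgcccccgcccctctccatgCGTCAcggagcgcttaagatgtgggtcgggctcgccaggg
Nr4a2: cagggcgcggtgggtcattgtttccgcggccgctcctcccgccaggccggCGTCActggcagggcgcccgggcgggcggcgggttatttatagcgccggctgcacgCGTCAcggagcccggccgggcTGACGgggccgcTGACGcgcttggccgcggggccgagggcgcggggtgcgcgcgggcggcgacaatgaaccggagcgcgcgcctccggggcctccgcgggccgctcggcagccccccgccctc
Nr4a3: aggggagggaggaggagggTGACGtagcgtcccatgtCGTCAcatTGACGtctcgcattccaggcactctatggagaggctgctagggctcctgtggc
The core stood 2 times in the 250 bases before the start of Egr4, and 4 times in each of the windows of Nr4a1, Nr4a2 and Nr4a3, of which 3 fall in the stretch shown for Nr4a3. Npas4, whose window lies wholly in annotated exons and is not shown, held 2. Of 32851 promoter windows of this length 17.8% held the core at least once. The full palindrome TGACGTCA, which contains the core on both strands, was in 1.55% of windows, and the CArG box of SRF in 1.47%. Neither was in any of the 5 windows. A match of letters is a description of the window and not a measured binding site. For Arc, Egr1 and Egr3 no promoter was matched.

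Depth averaged 29921831 reads in genes per library (20211543 to 42584762), with 27153238 ± 2712615 in D1 and 32690424 ± 3511626 in D2 (SD, n = 24 each). The markers matched the labelled cell types. Drd1 stood at 395 to 603 CPM in D1 libraries against 37.4 to 62.7 in D2 libraries, and Drd2 at 21.2 to 86.0 against 337 to 472. Reads of genes that mark other cell types were counted in both pull-downs, and which cells they came from was not tested. The summed level of 12 vascular genes was 60.7 to 98.6 CPM in D1 against 414 to 738 in D2, that of 10 astrocyte genes 257 to 528 against 487 to 963, and that of 10 microglial genes 17.4 to 31.4 against 27.9 to 78.0. That of 8 oligodendrocyte genes was 294 to 467 CPM against 593 to 884, that of 6 oligodendrocyte precursor genes 9.34 to 16.7 against 26.4 to 47.4, and that of 5 blood genes 7.19 to 22.7 against 257 to 535. The summed level of 8 genes of excitatory pallial neurons was 389 to 887 CPM in D1 against 103 to 633 in D2, and that of 10 interneuron genes 524 to 1110 against 137 to 213. None of the listed markers was at 0 in every library. CPM here are counts scaled to library size with TMM factors over all 48 libraries.

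Per kilobase of exon, Egr1 (ENSMUSG00000038418, GRCm38 chr18:34859823-34864984) had the highest level of the 8 members in both cell types and Npas4 (ENSMUSG00000045903, chr19:4984355-4990316) the lowest. In D1 libraries Egr1 stood at 71.1 ± 10.8 CPM per kb, followed by Egr4 (ENSMUSG00000071341, chr6:85511121-85513589) at 41.3 ± 7.89 (SD, n = 24). Egr1 lay above Egr4, and Egr4 above Nr4a1, in all 24 D1 libraries. Nr4a1 (ENSMUSG00000023034, chr15:101254269-101274795) at 22.1 ± 9.36, Egr3 (ENSMUSG00000033730, chr14:70077203-70082614) at 18.2 ± 2.02 and Arc (ENSMUSG00000022602, chr15:74669083-74672570) at 17.7 ± 5.51 CPM per kb could not be put in order. Nr4a1 exceeded Egr3 in 13 of the 24 libraries and Egr3 exceeded Arc in 12. Nr4a2 (ENSMUSG00000026826, chr2:57106830-57124003) followed at 14.8 ± 4.47 CPM per kb, under Arc in 16 of 24. Nr4a3 (ENSMUSG00000028341, chr4:48045153-48086447) at 6.27 ± 1.45 and Npas4 at 0.649 ± 0.281 CPM per kb closed the order, each under the gene before it in all 24.

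In D2 libraries the order differed in its middle and lower part. Egr1 stood at 65.7 ± 10.7 CPM per kb, Egr4 at 46.5 ± 8.23, Nr4a1 at 35.7 ± 10.2 and Arc at 26.1 ± 10.1 (SD, n = 24). Egr1 exceeded Egr4 in 24, Egr4 exceeded Nr4a1 in 23 and Nr4a1 exceeded Arc in 23 of the 24 libraries. Egr3 came next at 19.4 ± 2.67 CPM per kb, under Arc in 17 of 24. Below it lay Nr4a3 at 3.81 ± 0.995, Nr4a2 at 2.94 ± 1.48 and Npas4 at 0.993 ± 0.529 CPM per kb, with Nr4a3 above Nr4a2 in 19 of 24. No other gene overlaps the exons of the 8 members, and at most 0.1504% of the 50-base stretches of a member (Nr4a3) occur in another gene.

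**Figure D1:**
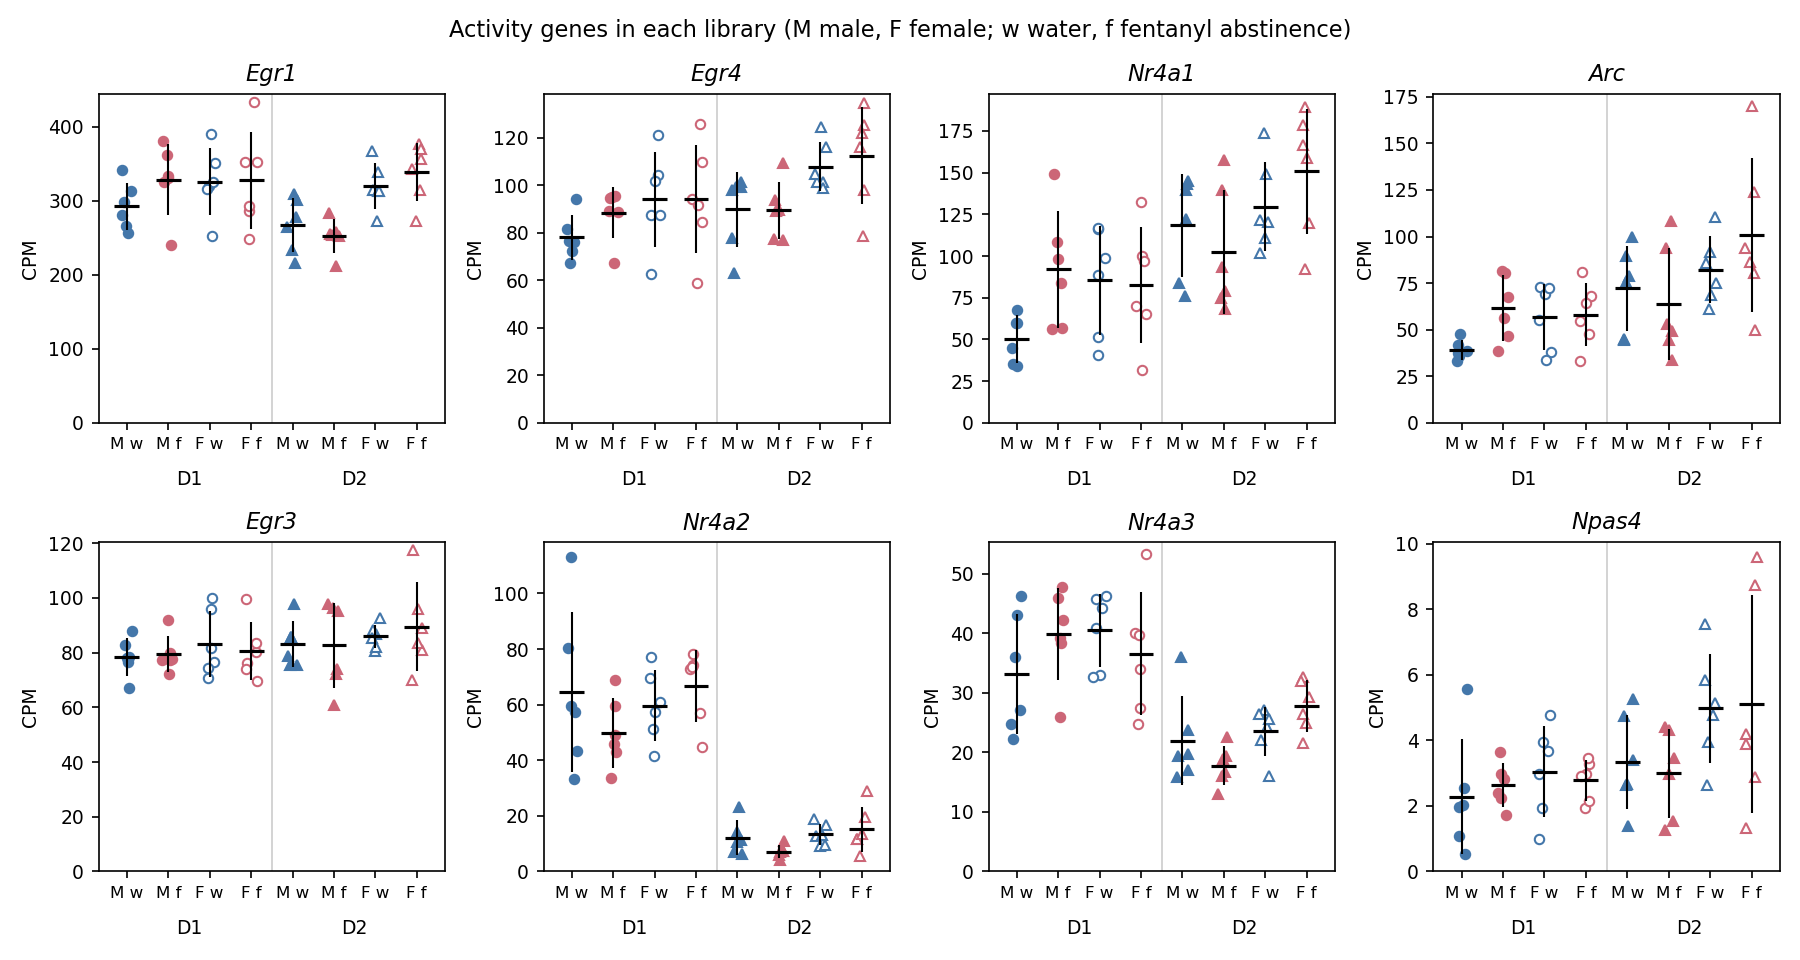
CPM of the 8 measured genes in each of the 48 libraries (y axis from 0, a scale per gene), by cell type, sex (M, F) and treatment (w water, f fentanyl abstinence), with black lines for the mean and bars for 1 SD of 6 libraries. Nr4a2 stands between 33.1 and 113 CPM in D1 and between 3.93 and 28.9 CPM in D2 libraries, while the other genes overlap between the cell types.

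The members differed widely in how much they varied between libraries of a cell type. Egr3 had an SD of 11.1% of its mean in D1 and 13.8% in D2, the smallest of the 8 by this measure, and its highest library was 1.49 and 1.93 times its lowest. In D2 Egr1 had the smaller ratio of highest to lowest library (1.78) and the smaller SD within groups (0.167 against 0.206 for Egr3, log2 CPM). The SD was 15.2% and 16.3% of the mean for Egr1 and 19.1% and 17.7% for Egr4. The SD was 31.2% and 38.7% of the mean for Arc, 42.3% and 28.7% for Nr4a1 and 23.1% and 26.1% for Nr4a3. Nr4a2 varied by 30.1% in D1 and 50.4% in D2. Npas4 varied by 43.3% and 53.2%.

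Among mice given water, D1 and D2 libraries were compared to see how the activity genes differ between the neuron types. Nr4a2 and Nr4a3 were higher in D1, Nr4a1 and Arc were lower in D1, and the other 4 did not pass an adjusted p of 0.05. So 2 of the 8 members were higher and 2 lower, beside 26.8% of all 18270 genes tested higher and 26.6% lower, 53.4% in either direction. The members' share, 4 of 8, is near that background and says nothing particular about them. Their median log2 difference was −0.13, and that of all genes −0.01. In such bulk libraries fewer cells of a type and less RNA per cell cannot be told apart.

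Nr4a2 was at 33.1, 58.5 and 113 CPM (lowest, median and highest) in the 12 D1 water libraries and at 6.16, 12.1 and 23.2 CPM in the 12 D2 water libraries. The groups did not overlap, as for 12.8% of all genes. The D1 level was 4.89 times the D2 level, or 2.29 more on the log2 scale (SE 0.21, edgeR adjusted p = 2.49e-13). Nr4a3 was at 22.2, 38.5 and 46.3 CPM in D1 and at 15.9, 22.9 and 36.1 CPM in D2 water libraries. The groups overlapped, and the log2 difference was 0.69 (SE 0.13, edgeR adjusted p = 1.3e-05). Genes of other neurons moved with this comparison: all 8 excitatory pallial genes and all 10 interneuron genes were higher in D1. Their part in the difference of Nr4a2 and Nr4a3 between the cell types was not tested.

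Nr4a1, also known as Nur77, went the other way, with 34.0, 59.9 and 117 CPM in D1 and 76.3, 122 and 173 CPM in D2 water libraries. The D1 level was 0.529 times the D2 level (log2 −0.92, SE 0.19, edgeR adjusted p = 5.73e-05). Arc was at 33.0, 40.4 and 73.1 CPM in D1 and at 44.3, 77.3 and 111 CPM in D2, which made −0.70 on the log2 scale (SE 0.18, edgeR adjusted p = 0.000913). For both genes the ranges overlapped. All 12 vascular, 9 of 10 microglial, 9 of 10 astrocyte, 8 of 8 oligodendrocyte, 5 of 6 oligodendrocyte precursor and 5 of 5 blood genes were lower in D1, and their part in these differences was not tested. Npas4 had a log2 difference of −0.62 (95% interval −1.18 to −0.06, edgeR adjusted p = 0.055), Egr4 of −0.20 (−0.40 to −0.01, adjusted p = 0.0774), Egr1 of 0.08 (−0.07 to 0.23, adjusted p = 0.402) and Egr3 of −0.07 (−0.21 to 0.08, adjusted p = 0.462).

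In the fentanyl groups the same comparison gave the same 4 members past the threshold, 2 higher and 2 lower in D1, beside 26.9% of all genes higher and 27.2% lower, 54.1% in either direction. Nr4a2 was at 33.5, 58.2 and 78.2 CPM in D1 and at 3.93, 9.29 and 28.9 CPM in D2 libraries, without overlap, as for 12.2% of all genes. Its log2 difference was 2.47 (SE 0.21, edgeR adjusted p = 3.32e-14), and that of Nr4a3 was 0.78 (SE 0.13, adjusted p = 1.4e-06). Nr4a1 was at 31.5, 90.4 and 149 CPM in D1 and at 68.5, 130 and 189 CPM in D2, or −0.51 on the log2 scale (SE 0.19, edgeR adjusted p = 0.0202). Without library D2 male fentanyl 1 it had an adjusted p of 0.0538 (log2 −0.43). Arc was at 33.0, 60.3 and 81.6 CPM in D1 and at 33.5, 83.4 and 170 CPM in D2 (log2 −0.42, SE 0.18, edgeR adjusted p = 0.0447).

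That call of Arc rests on single libraries. It was lost when any 1 of 9 fentanyl libraries was left out, namely D1 male 1, 3 or 6, D1 female 2 or 5, D2 male 1 or 2 and D2 female 5 or 6. The edgeR adjusted p was then 0.0508 to 0.135, with log2 differences between −0.31 and −0.42. Of the other 4 members, Egr1 had a log2 difference of 0.17 (95% interval 0.01 to 0.32, adjusted p = 0.0629) and Npas4 of −0.54 (−1.09 to 0.02, adjusted p = 0.098). Egr3 stood at −0.10 (−0.25 to 0.04) and Egr4 at −0.14 (−0.33 to 0.06), both short of the threshold.

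**Figure D2:**
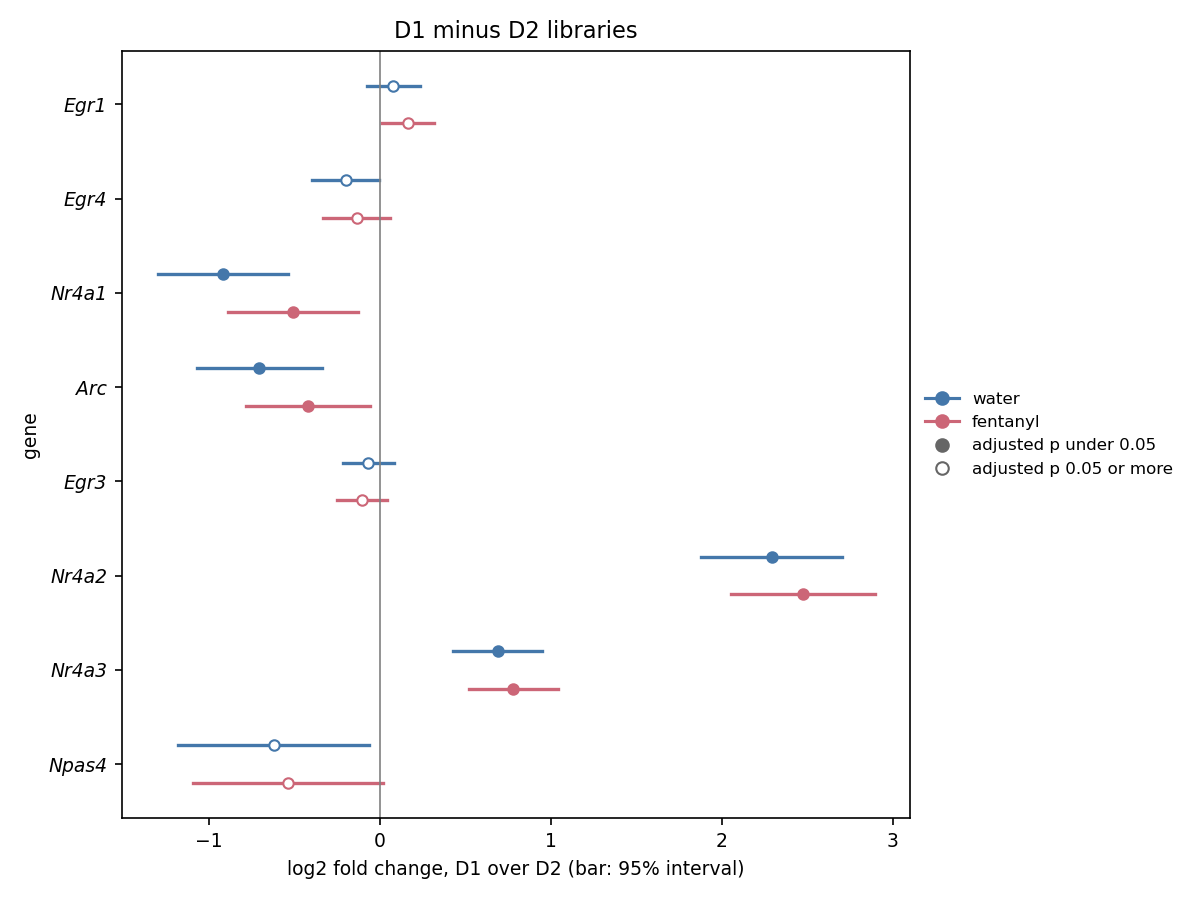
Log2 fold change of D1 over D2 libraries for the 8 genes (x axis), in the water groups (blue) and the fentanyl groups (red), with 95% intervals, filled where the edgeR adjusted p was under 0.05. Nr4a2 lies at 2.29 and 2.47, Nr4a3 at 0.69 and 0.78, Arc at −0.70 and −0.42 and Nr4a1 at −0.92 and −0.51.

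Other genes of the same pathway were taken from lists that were chosen with earlier results of these data known. They were counted in the D1 against D2 comparison in water, where 26.8% of all genes were higher and 26.6% lower in D1. Of 7 AP-1 factors 1 was higher and 2 were lower in D1. Jun, the stress-responsive member, had a log2 difference of −2.85 (SE 0.08) and Junb of −0.46 (SE 0.11). Jund also passed, with a log2 difference of 2.30 (SE 0.80). Library D1 male water 6 stood at 39.7 CPM for Jund, against medians of 0.572 CPM in D1 and 0.430 CPM in D2 water libraries, and no other water library exceeded 0.752 CPM. Of 33 other rapid activity genes 5 were higher and 15 lower. Higher were Sik1, a kinase that restrains CREB coactivators (1.06), Klf6 (0.53), Plk3 (0.45) and Fbxo33 (0.22), and lower were Klf2, a factor prominent in endothelium (−3.26), the matrix protein gene Ccn1 (−0.81), Arl4d (−0.62) and the MAP kinase phosphatase gene Dusp1 (−0.33). Their median was −0.17, as was that of the AP-1 list.

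Of 20 genes that follow activity later, 10 were higher and 5 lower in D1, with a median of 0.20. Crh, the corticotropin-releasing hormone gene, had a log2 difference of 2.97, the neuritin gene Nrn1 of 1.64, the neurotrophin gene Bdnf of 1.05 and the pentraxin gene Nptx1 of 0.95. Lower were Dusp14 (−0.50), the pentraxin gene Nptx2 (−0.46), Rgs9 (−0.37), which is also on the list of spiny neuron genes, and Cartpt (−0.27). Of 17 upstream regulators 12 were higher and 1 lower (median 0.24). They included the acetyltransferase gene Ep300 (0.70), Mef2c (0.69), the kinase gene Camk2a (0.50) and Mef2a (0.47), with the CREB coactivator gene Crtc2 lower (−0.38). All genes named from these lists passed edgeR at an adjusted p under 0.05. Excitatory pallial and interneuron genes were also higher in D1, and glial, vascular and blood genes mostly lower. The part of those cells in the differences of these lists was not tested.

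Of 11 partners and corepressors of the members 4 were higher and 5 lower in D1 (median −0.10). The Egr corepressor Nab1 was higher (log2 0.45) and its relative Nab2 lower (−0.36). Rxra, one of the retinoid X receptors that pair with Nr4a1 and Nr4a2, was higher (0.31), and Rxrg (−0.60) and Rxrb (−0.22) were lower. Arnt2, a dimer partner of Npas4, was higher (0.36), and so was Ube3a (0.28), a ubiquitin ligase linked to Arc. Dnm2, a dynamin that Arc binds, was lower (−0.47). In the fentanyl groups, with 26.9% of all genes higher and 27.2% lower, the counts were 0 higher and 2 lower of the AP-1 factors, 7 and 15 of the other rapid genes, 10 and 5 of the later genes, 12 and 2 of the upstream regulators and 4 and 5 of the partners.

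The comparison of fentanyl abstinence with water asks whether the activity genes differed on day 10 of abstinence. None of the 8 members passed in D1 or in D2 libraries over both sexes, and edgeR called 0 of 16782 genes in D1 and 0 of 17706 in D2, a background of 0%. At an unadjusted p under 0.05 there were 639 genes in D1 and 783 in D2, and DESeq2 called 3 and 0 genes. In D1, Arc was at 33.0, 60.3 and 81.6 CPM with fentanyl against 33.0, 40.4 and 73.1 CPM with water. The groups overlapped over nearly their whole range, and the log2 difference was 0.35 (95% interval 0.04 to 0.66, edgeR unadjusted p = 0.03, adjusted p = 1). Nr4a1 was at 31.5, 90.4 and 149 CPM with fentanyl against 34.0, 59.9 and 117 CPM with water (log2 0.42, interval −0.02 to 0.85, edgeR unadjusted p = 0.0617, adjusted p = 1). The other 6 members lay between −0.10 (Nr4a2, −0.41 to 0.22) and 0.09 (Egr4, −0.12 to 0.31).

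The width of the intervals in D1 differed with the member. That of Egr3 ran from −0.14 to 0.12 on the log2 scale, that of Egr1 from −0.09 to 0.27 and that of Nr4a3 from −0.20 to 0.33. That of Npas4 ran from −0.51 to 0.57, and differences of either sign within that interval are compatible with these libraries.

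In D2 libraries Arc was at 33.5, 83.4 and 170 CPM with fentanyl against 44.3, 77.3 and 111 CPM with water, and the fentanyl libraries reached both lower and higher. The log2 difference was 0.06 (95% interval −0.33 to 0.44, edgeR adjusted p = 0.998). Nr4a1 was at 68.5, 130 and 189 CPM against 76.3, 122 and 173 CPM (log2 0.00, interval −0.29 to 0.30). Nr4a2 was at 3.93, 9.29 and 28.9 CPM against 6.16, 12.1 and 23.2 CPM (log2 −0.29, −0.74 to 0.16). The Egr genes stood between −0.00 for Egr1 (−0.13 to 0.12) and 0.02 for Egr3 and Egr4, Nr4a3 at −0.03 and Npas4 at −0.06 (−0.60 to 0.48).

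The difference in fentanyl response between D1 and D2 was tested as an interaction over all 48 libraries. It was largest for Nr4a1 among the 8, at 0.41 (95% interval −0.12 to 0.94, edgeR adjusted p = 1), and stood at 0.28 (−0.23 to 0.80) for Arc and 0.18 (−0.39 to 0.75) for Nr4a2. The value of Nr4a2 was 0.04 without D2 male water 1 and 0.33 without D2 female fentanyl 5. The other 5 lay between −0.04 for Egr3 and 0.09. edgeR called 0 of 18270 genes for this difference, with 825 at an unadjusted p under 0.05, and DESeq2 called 6. None of the genes on the AP-1, other rapid, later, upstream and partner lists passed by edgeR in this or either fentanyl comparison.

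In D1 males Arc was at 38.5, 61.9 and 81.6 CPM with fentanyl against 33.0, 38.2 and 47.9 CPM with water. Of the 6 fentanyl libraries 4 lay above every water library and the other 2 among them. The log2 difference was 0.66 (95% interval 0.22 to 1.10, edgeR unadjusted p = 0.00475, adjusted p = 1). Nr4a1 was at 56.5, 90.9 and 149 CPM against 34.0, 52.2 and 67.6 CPM, again with 4 libraries above every water library. The log2 difference was 0.88 (SE 0.30, edgeR unadjusted p = 0.00766, adjusted p = 1). Neither passed adjustment over 16782 genes, of which edgeR called 0, with 464 at an unadjusted p under 0.05, and DESeq2 called 4. Of the 7 AP-1 factors 6 and of 33 other rapid genes 26 lay above 0 (medians 0.18 and 0.15), beside 8742 of all 16782 genes (median 0.005), and none passed. The other 6 members lay between −0.36 and 0.27.

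Markers of glial, vascular and blood cells mostly lay below 0 in this comparison, and none passed. All 8 oligodendrocyte genes, 8 of 10 astrocyte genes, 7 of 10 microglial genes, 6 of 9 vascular genes tested and all 4 blood genes tested lay below 0 with fentanyl, 3 of the blood genes at an unadjusted p under 0.05. The summed astrocyte level was 287, 314 and 380 CPM with fentanyl against 257, 314 and 525 CPM with water, the oligodendrocyte level 294, 359 and 467 against 336, 372 and 425 CPM, and the blood level 7.19, 8.14 and 10.0 against 7.24, 10.1 and 18.2 CPM. These ranges overlapped. With a covariate of the glial and vascular markers the log2 difference was 0.69 for Arc (edgeR unadjusted p = 0.00604) and 0.87 for Nr4a1 (unadjusted p = 0.0128), with an adjusted p of 1 for both. All 7 D2 neuron genes lay above 0 (median log2 0.11), and none passed, with a summed level of 2384, 2927 and 3516 CPM with fentanyl against 1565, 2882 and 3824 CPM with water. The part of blood and of D2 neurons was not tested.

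In D1 females Arc was at 33.0, 59.5 and 81.0 CPM with fentanyl and at 33.7, 62.2 and 73.1 CPM with water, and Nr4a1 at 31.5, 83.5 and 132 CPM and at 40.7, 93.8 and 117 CPM. The groups overlapped over nearly their whole range, with log2 differences of 0.03 (95% interval −0.41 to 0.47) for Arc and −0.05 (−0.66 to 0.57) for Nr4a1 (edgeR adjusted p = 0.987 for both). Of the AP-1 factors 3 of 7 and of the other rapid genes 10 of 33 lay above 0 in females (medians −0.04 and −0.09), beside 8218 of all 16782 genes (median −0.004), and none passed. The difference between the sexes, female response minus male response, was −0.63 for Arc (−1.25 to −0.01, edgeR unadjusted p = 0.046, adjusted p = 0.993) and −0.93 for Nr4a1 (−1.80 to −0.05, unadjusted p = 0.0395, adjusted p = 0.993). edgeR called 0 genes in females (964 unadjusted, DESeq2 0) and 0 for the difference between the sexes (674 unadjusted, DESeq2 4).

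The sexes were also compared within the water groups. In D1 the female minus male log2 difference was 0.54 for Arc (95% interval 0.10 to 0.98, edgeR unadjusted p = 0.0175, adjusted p = 0.757) and 0.77 for Nr4a1 (0.14 to 1.39, unadjusted p = 0.0178, adjusted p = 0.757), neither past the threshold. The male water group had an Arc mean of 39.2 ± 5.22 CPM, and the other 3 D1 groups had means of 57.0 ± 17.6, 58.1 ± 16.8 and 61.8 ± 17.8 CPM (SD, n = 6). Its Nr4a1 mean was 50.2 ± 14.2 CPM, and those of the other 3 groups were 82.7 to 92.1 CPM. The responses in males, the difference between the sexes and this comparison share the male water libraries and are not independent of each other. In females against males in D1 water libraries edgeR called 8 genes (0.0477%), 0.0179% higher and 0.0298% lower, and no member.

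In D2 males Nr4a2 was at 3.93, 7.05 and 11.1 CPM with fentanyl against 6.16, 11.0 and 23.2 CPM with water, with overlapping groups. The log2 difference was −0.76 (95% interval −1.41 to −0.11, edgeR unadjusted p = 0.0235, adjusted p = 0.713), and that of Nr4a3 −0.30 (−0.64 to 0.03, adjusted p = 0.73). In D2 females the log2 differences were 0.18 (−0.45 to 0.81, adjusted p = 0.985) for Nr4a2 and 0.24 (−0.09 to 0.57, adjusted p = 0.956) for Nr4a3. The female response minus the male response was 0.94 for Nr4a2 (0.03 to 1.84, edgeR unadjusted p = 0.0423, adjusted p = 0.595) and 0.55 for Nr4a3 (0.07 to 1.01, unadjusted p = 0.0247, adjusted p = 0.577), both short of the threshold. Without library D2 male water 1 the difference in males was −0.47 for Nr4a2 and −0.11 for Nr4a3, and the difference between the sexes was 0.35 for Nr4a3. Without D2 female fentanyl 5 the difference of Nr4a2 was −0.11 in females, and 0.65 between the sexes. edgeR called 0 genes in D2 males (1234 unadjusted, DESeq2 1), 0 in females (838, DESeq2 4) and 0 for the difference between the sexes (1458, DESeq2 8). Arc stood at −0.18 in males and 0.29 in females, and Nr4a1 at −0.21 and 0.22, with intervals that held 0. Without D2 male fentanyl 1 the values in males were −0.40 for Arc and −0.38 for Nr4a1, and without D2 male fentanyl 6 they were −0.05 and −0.12. In females they were 0.08 and 0.14 without D2 female fentanyl 5, and 0.43 and 0.33 without D2 female fentanyl 3.

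In D2 all 8 members lay below 0 in males (median log2 −0.17) and above 0 in females (median 0.13), and none passed. Of 33 other rapid genes 13 lay above 0 in males and 28 in females, and of 7 AP-1 factors 4 and 5. Beside these, 8653 of all 17706 genes lay above 0 in males and 8934 in females. Genes of excitatory pallial neurons also had the signs of Nr4a2 in D2, and most vascular genes did too. All 8 pallial genes lay below 0 in males (median log2 −0.56) and above 0 in females (median 0.42), and none passed. Their summed level was 103, 168 and 329 CPM in the D2 male fentanyl libraries, 135, 209 and 363 in male water, 115, 282 and 633 in female fentanyl and 168, 235 and 315 in female water. Of 12 vascular genes 9 lay below 0 in males (median −0.06) and 11 above 0 in females (median 0.11), and none passed. Their summed level was 414, 482 and 623 CPM in male fentanyl, 417, 529 and 656 in male water, 473, 594 and 738 in female fentanyl and 448, 554 and 612 in female water. Of 7 D2 neuron genes 5 lay above 0 in males and 0 in females, and all 10 astrocyte genes in males and 8 in females lay below 0. With the covariate of glial and vascular markers the male difference of Nr4a2 was −0.55 (edgeR unadjusted p = 0.0393, adjusted p = 0.747). The part of the pallial neurons in the values of Nr4a2 was not tested beyond the correlation given further on. In D2 water libraries the female minus male log2 difference was 0.26 for Egr1 (95% interval 0.08 to 0.44, edgeR unadjusted p = 0.00558, adjusted p = 0.241) and 0.26 for Egr4 (0.03 to 0.50, unadjusted p = 0.0318, adjusted p = 0.381), and no member passed, beside 15 genes called by edgeR (0.0847%), 0.0339% higher and 0.0508% lower.

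**Figure D3:**
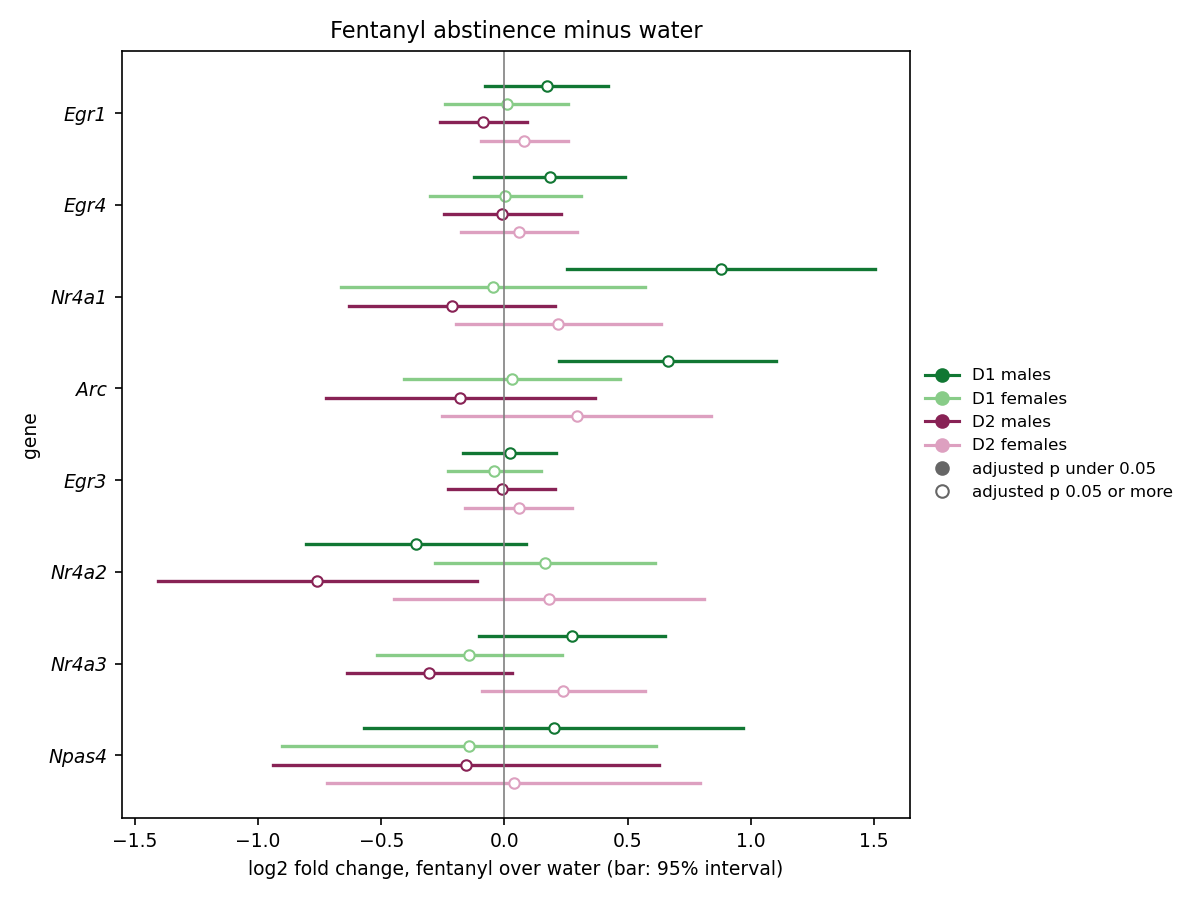
Log2 fold change of fentanyl abstinence over water for the 8 genes (x axis) in males and females of each cell type, with 95% intervals, open because no edgeR adjusted p was under 0.05. Intervals that leave out 0 are those of Arc (0.66) and Nr4a1 (0.88) in D1 males and of Nr4a2 (−0.76) in D2 males.

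Whether the members rise and fall together between libraries of the same group was asked from log2 CPM minus the mean of each sex and treatment group, in 28 pairs of genes per cell type. In D1 libraries 9 pairs and in D2 libraries 11 pairs passed an adjusted p of 0.05 by Pearson's r with permutation within groups, all positive except 1 in D2. By Spearman's rho 8 and 11 passed. The points of a correlation share the library, so its depth and makeup enter both genes. The share of pairs that pass among all genes was not computed. Whether the members' counts exceed that share was therefore not tested. The smallest p that 100000 draws can give is 1e-05.

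Arc, Nr4a1, Egr4 and Egr1 formed 6 pairs that all passed in both cell types over all libraries. Arc and Nr4a1 had r = 0.87 in D1 (rho 0.83, permutation p = 1e-05, adjusted p = 9.33e-05, n = 24) and 0.92 in D2 (rho 0.92, permutation p = 1e-05, adjusted p = 7e-05, n = 24). Without the 2 libraries farthest from the median of Arc, r was 0.80 and 0.91. Egr4 and Nr4a1 had r = 0.84 in D1 (rho 0.79, permutation p = 1e-05, adjusted p = 9.33e-05, and r = 0.73 without 2 libraries) and 0.88 in D2 (rho 0.91, permutation p = 1e-05, adjusted p = 7e-05, and 0.88 without 2). Egr1 and Egr4 had r = 0.84 in both, with rho 0.73 and 0.81, permutation p = 1e-05 and 4e-05, adjusted p = 9.33e-05 and 0.000224, and r = 0.80 and 0.74 without 2. The other 3 of these pairs had r between 0.63 and 0.83.

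Single libraries show this. D2 female fentanyl 5 was the highest of the 24 D2 libraries for Arc (170 CPM), Nr4a1 (189 CPM) and Egr4 (135 CPM), as it was for Npas4 (9.60 CPM) and Nr4a2 (28.9 CPM), but ranked 23 for Egr3. D1 female fentanyl 5 was the lowest of the D1 libraries for Nr4a1 (31.5 CPM) and Egr4 (59.0 CPM) and ranked 23 of 24 for Arc and Egr1, but 3 for Nr4a2. High and low libraries occurred under both treatments, as D1 female water 6 ranked 22 for Arc and 23 for Egr4.

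Both low D1 libraries stand apart in other measures. D1 female water 6 and D1 female fentanyl 5 had the lowest TMM factors of all 48 libraries (0.895 and 0.950) and the highest shares of reads outside the gene counts (32.6% and 29.5%), and D1 female water 6 had the fewest reads in genes (20211543). The pairs in D1 were therefore computed again without these 2 libraries, a choice made after the data were seen. Of the 28 pairs 10 then passed by Pearson's r and 8 by Spearman's rho. Arc and Nr4a1 had r = 0.79 (rho 0.79, permutation p = 0.00014, adjusted p = 0.00196, n = 22), Egr4 and Nr4a1 0.71 (rho 0.75, permutation p = 0.00061, adjusted p = 0.0026) and Egr1 and Egr4 0.77 (rho 0.68, permutation p = 0.0006, adjusted p = 0.0026).

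Other pairs in D1 changed sides without them. Egr1 and Nr4a1 (r = 0.49, permutation p = 0.0333, adjusted p = 0.0778) and Npas4 and Nr4a1 (r = 0.40, permutation p = 0.0603, adjusted p = 0.113) no longer passed. Egr3 and Egr4 passed (r = 0.74, rho 0.66, permutation p = 0.00065, adjusted p = 0.0026), as did Nr4a3 with Arc (0.48) and with Egr4 (0.55), both with an adjusted permutation p of 0.0482 by Pearson's r but not by Spearman's rho.

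Npas4 passed with Arc in both cell types, at r = 0.62 in D1 (rho 0.74, permutation p = 2e-05, adjusted p = 0.000112, and 0.55 without 2 libraries) and 0.84 in D2 (rho 0.83, permutation p = 1e-05, adjusted p = 7e-05, and 0.82 without 2). Here and below, "without 2" leaves out the 2 libraries farthest from the median of 1 of the paired values. It also passed with Nr4a1, at 0.51 in D1 (rho 0.48, permutation p = 0.00493, adjusted p = 0.0153) and 0.62 in D2 (rho 0.60, permutation p = 0.00417, adjusted p = 0.0117). Without 2 libraries this pair had r = 0.36 in D1 and 0.49 in D2, and in D1 its Spearman adjusted p was 0.068. With Egr4 it passed in D2 at r = 0.69 (rho 0.58, permutation p = 0.00113, adjusted p = 0.00395, and 0.49 without 2), against 0.35 in D1 (rho 0.39, permutation p = 0.0671, adjusted p = 0.188). Over all libraries Nr4a3 passed with Egr1 alone among the 8, at 0.60 in D1 (rho 0.64, permutation p = 0.0041, adjusted p = 0.0143, and 0.41 without 2) and 0.56 in D2 (rho 0.57, permutation p = 0.0109, adjusted p = 0.0276, and 0.47 without 2).

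Over all libraries, Egr3 and Nr4a2 did not pass with Arc, Egr1, Egr4 or Nr4a1 in either cell type. The pair of Egr3 and Nr4a2 was the negative one, with r = −0.68 in D2 (rho −0.70, permutation p = 0.00071, adjusted p = 0.00284, and −0.68 without 2 libraries). In D1 it had r = −0.10 (rho −0.22, permutation p = 0.651, adjusted p = 0.701). The difference between the cell types in any of these correlations was not tested.

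**Figure D4:**
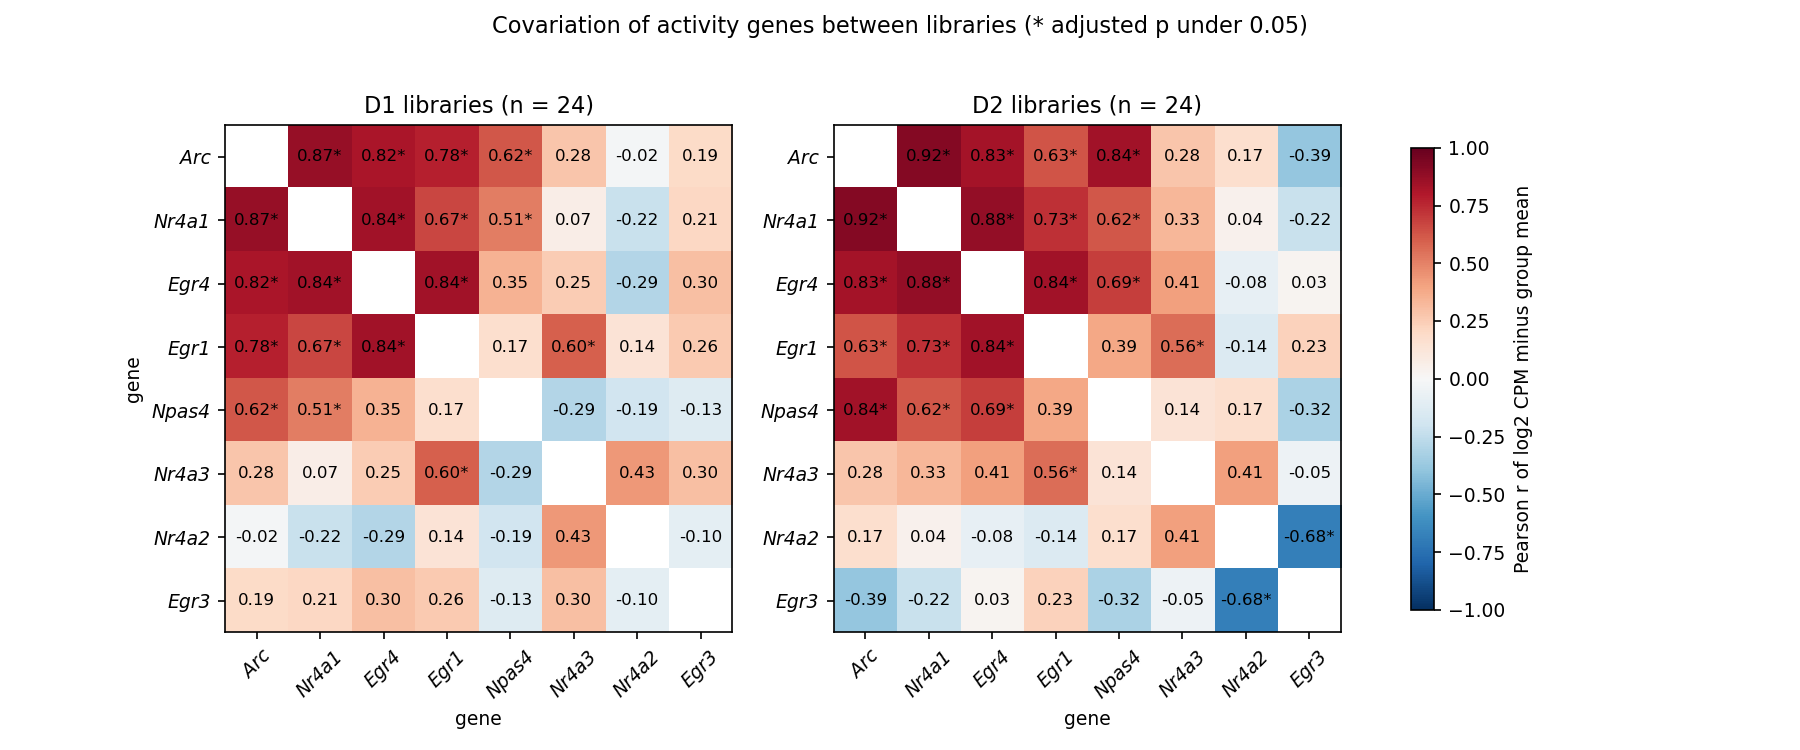
Pearson's r between the 8 genes in D1 (left) and D2 libraries (right), from log2 CPM minus group means over 24 libraries each, with a star where the adjusted permutation p was under 0.05. Arc, Nr4a1, Egr4 and Egr1 form a block of positive values from 0.63 to 0.92, while Nr4a2 and Egr3 lie outside it.

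Nr4a2 was set against the summed levels of other cell types' genes in the same way, in 48 pairs of a member and a marker list per cell type, a choice made after the data were seen. In D2 libraries it followed the sum of the 8 excitatory pallial genes with r = 0.89 (rho 0.87, permutation p = 1e-05, adjusted p = 0.00048, and 0.83 without the 2 farthest libraries, n = 24). The single genes of that list were not tested against it. The library with the highest pallial sum, D2 female fentanyl 5 at 633 CPM, had the highest Nr4a2, and D2 male fentanyl 6 the lowest of both, at 103 and 3.93 CPM. The vascular sum gave r = 0.67 in D2 (rho 0.55, permutation p = 0.00124, adjusted p = 0.0298, and 0.57 without 2), and its Spearman adjusted p was 0.183. In D1 libraries the pallial sum gave r = 0.36 (rho 0.48, permutation p = 0.0728, adjusted p = 0.313, and 0.53 without 2), and the astrocyte sum gave r = 0.68 (rho 0.77, permutation p = 0.00147, adjusted p = 0.0353, and 0.61 without 2). Short of the threshold were the interneuron sum in D1, at r = 0.61 (permutation p = 0.00722, adjusted p = 0.0693), and the astrocyte sum in D2, at 0.55 (permutation p = 0.00746, adjusted p = 0.0716).

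In D1 the astrocyte sum also went against Egr4, at r = −0.67 (rho −0.55, permutation p = 0.00088, adjusted p = 0.0353, and −0.58 without 2), and Nr4a1, at −0.61 (rho −0.43, permutation p = 0.00312, adjusted p = 0.0499, and −0.44 without 2). Their Spearman adjusted p was 0.154 and 0.307. Without D1 female water 6 and D1 female fentanyl 5 none of the 48 pairs in D1 passed by Pearson's r and 1 by Spearman's rho. The astrocyte sum then had r = −0.37 with Egr4 (permutation p = 0.0699, adjusted p = 0.433), −0.32 with Nr4a1 (permutation p = 0.146, adjusted p = 0.481) and 0.74 with Nr4a2 (rho 0.73, permutation p = 0.00207, adjusted p = 0.0994, Spearman adjusted p = 0.0293). No pair with Arc, Egr1, Npas4 or Nr4a3 passed in either cell type, and none with Egr3, which had r = −0.64 with the pallial sum in D2 (rho −0.63, permutation p = 0.00465, adjusted p = 0.0602, and −0.43 without 2).

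**Figure D5:**
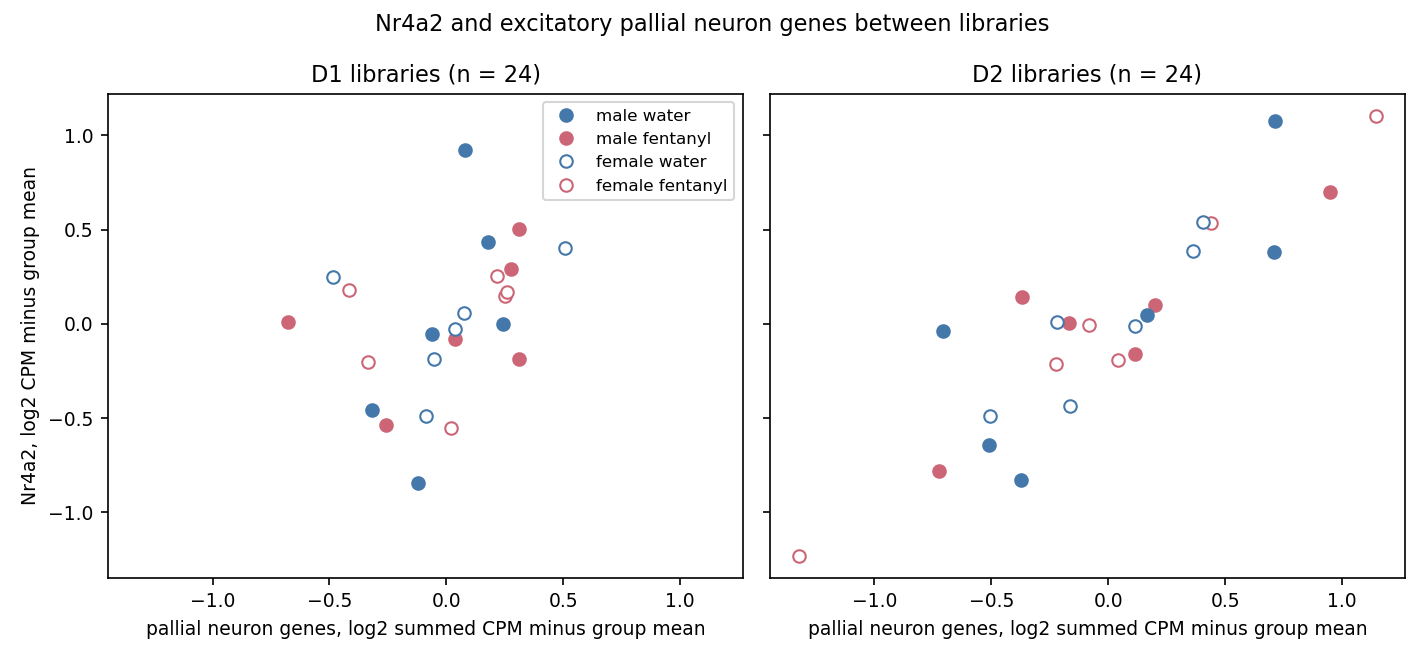
Nr4a2 (y axis, log2 CPM minus the group mean) against the summed level of 8 excitatory pallial neuron genes (x axis, log2 summed CPM minus the group mean) in D1 (left) and D2 libraries (right), coloured by treatment and filled for males. The D2 points follow a rising line (r = 0.89, and 0.83 without the 2 farthest libraries). The D1 points spread more (r = 0.36, and 0.53 without the 2 farthest), and the difference between the cell types was not tested.

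The genes most like the members were sought among all genes with a mean of at least 5 CPM, by Pearson's r with the mean z score of the 7 members at that level, after group means were removed. Among 10618 genes ranked in D1 the closest were Nfil3 (r = 0.77), Fosb (0.74), Fos (0.73), Klf10 (0.72) and Dusp1 (0.72). Among 10695 in D2 they were Nfil3 (0.88), Dusp5 (0.81), Fosl2 (0.76), Fos (0.72) and Junb (0.70). Nfil3 encodes a basic leucine zipper repressor, Fos, Fosb, Fosl2 and Junb are AP-1 subunits, Klf10 is a zinc finger factor, and Dusp1 and Dusp5 encode phosphatases of MAP kinases. These 5 of each cell type stand on the AP-1 or other rapid activity lists, which hold 7 and 33 genes. Those lists were chosen with earlier results of these data known. Of the genes ranked 6 to 12, Fosl2, Dusp6 and Gpr3 in D1 and Fosb, Dusp6 and Dusp1 in D2 stand on an activity list. The other 4 are on none of the lists, namely Bhlhe40, Rsrp1, Sdf2l1 and Zw10 in D1 (0.70 to 0.68) and Exoc8, Klhl42, Hspa5 and Mrpl16 in D2 (0.68 to 0.67), named after their values were seen. These values over 24 libraries are descriptions, with no test.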

How the data were processed

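Polyribosomes were pulled down with an antibody to the haemagglutinin tag from 4 punches of 14 gauge per mouse, and 10 ng of RNA per library entered the Smart-Seq v4 kit, per the labels' protocols. The kit marks no strand and no molecules, so reads are not independent molecules. Per the submitters' processing notes, TopHat2 2.0.8, HTSeq and GRCm38 were used, while strand setting and annotation release are not given in the sources used here. The deposited values are raw counts of reads over exons per gene for 54838 genes. The 5 summary lines, 22.9% of reads on average (17.7 to 32.6%), were left out.

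Symbols, coordinates and exon lengths came from GENCODE M21 on GRCm38, which named 54809 identifiers. No copies were found among replicates, and the labels give no batch. edgeR 4.0.16 (R 4.3.3) was run with TMM scaling, filterByExpr (count minimum 10, total 15), two-sided quasi-likelihood tests and adjusted p-values (Benjamini-Hochberg, threshold 0.05) over all genes. D1 against D2 and the difference in response used all 48 libraries, and the other comparisons the 24 of a cell type. Intervals are 95%, and a prior count of 2 entered log2 CPM. All members were described, and of each other list up to 4 genes a direction past the threshold with a mean of at least 2 CPM. The members and lists were chosen with earlier results of these data known. Pairs of genes were tested by 100000 permutations within groups. The 36 pairs planned became 28, since Egr2 was at 0. The test was also run on simulated counts with the same dispersion for every gene. That run gives no error rate for members whose spread differs from it. Alternatives were DESeq2 1.42.0, RLE scaling, no filter, a replicate block, a non-neuronal marker covariate within cell types, single libraries left out and Spearman correlation. Correlations in D1 without 2 libraries that stand apart were added after the data were seen.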

Additional observations from a re-analysis of the deposited data

Results flagged for a closer look

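Egr4 in library D1 male fentanyl 3 stood at 67.46 CPM, apart from the other 5 libraries of that group at 88.61 to 95.46 CPM. Its gap to the nearest library was 0.755 of the range of the group, above Dixon's 95% critical value of 0.625 for 6 samples. It was the one such value in 64 combinations of gene and group. Chance alone flags about 1 in 20 combinations under this rule, so 1 in 64 is no more than chance gives.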

How the results depend on the processing

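Members past the threshold between D1 and D2 in water stayed 4 with DESeq2, RLE scaling and no filter, and became 5 with a replicate block, which added Npas4 (log2 −0.64, edgeR adjusted p = 0.0455). In fentanyl they were 4 with DESeq2 and RLE scaling, 3 without the filter (Arc −0.42, adjusted p = 0.0551) and 5 with the block, which added Egr1 (0.16, adjusted p = 0.0464). The block changed no other member's call. Within a cell type same-numbered libraries did not pair: 11 of 36 correlations in D1 (mean −0.05) and 7 of 36 in D2 (−0.01) exceeded 0.1, and 0 and 1 of 24 libraries correlated best with their own number. Pairing of a D1 with a D2 library of the same number was not checked. Of 2640 values of 72 gene results under other settings 2527 kept direction and side of the threshold, and 72 turned direction, 0 of them for a gene past the threshold. Results by sex entered only for Arc, Nr4a1, Nr4a2 and Nr4a3, or Arc, Nr4a1, Egr1 and Egr4 between the sexes in water. Many results lay far from the threshold, and some libraries left out were not in the comparison. The count of unchanged values therefore does not measure robustness. Pairs of members that varied together in D1 numbered 10 without D1 female water 6 and D1 female fentanyl 5, a choice made after the data were seen, against 9 over all libraries, with 2 pairs lost and 3 gained. The cause of a change was not tested.

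Counts over all genes moved with DESeq2 to 6 for the difference in response (0 by edgeR), 3 in D1, 4 in D1 males, 1 in D2 males, 4 in D2 females, 4 and 8 for the sex differences in D1 and D2, and 13 and 97 for females against males in water in D1 and D2 (8 and 15 by edgeR). Without the filter D2 females had 1. Near 0, the fentanyl difference in D2 turned sign for Egr1 (0.001 with DESeq2, RLE scaling or the covariate, 0.005 without the filter, −0.002 as reported) and for Nr4a1 (−0.006 with the covariate, −0.012 with the block).

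Leaving out single libraries moved the members past the threshold between D1 and D2 in fentanyl over 2 to 5, with 2 without D2 male fentanyl 1. Between D1 and D2 in water, Npas4 passed without any 1 of 14 libraries (edgeR adjusted p 0.00479 to 0.0496): D1 male water 5, D1 male fentanyl 1, D1 female water 2, 3 or 4, D1 female fentanyl 4 or 5, D2 male water 3 or 6, D2 female water 3 and D2 female fentanyl 1, 2, 3 or 5. Egr4 passed without any 1 of 8 (0.0216 to 0.0493): D1 male water 1, D1 female water 2, 3 or 4, D1 female fentanyl 1 or 5 and D2 male water 3 or 6. In fentanyl, Egr1 passed without any 1 of 5 (0.0178 to 0.0457), D1 male fentanyl 3, D1 female fentanyl 2 or 5, D1 female water 6 and D2 male fentanyl 2, and Npas4 without D2 female fentanyl 3 (0.0408). Counts over all genes ran from 0 to 1 for the difference in response, fentanyl in D1 males and in D1 females and both sex differences, and from 9 (without D2 female water 3) to 19 for females against males in D2. Fentanyl values that crossed 0 were, in D1, Egr3 (−0.048 to 0.013), Npas4 (−0.082 to 0.28), Nr4a2 (−0.166 to 0.014), Nr4a3 (−0.008 to 0.119), and in D1 females Arc (−0.092 to 0.149) and Nr4a1 (−0.234 to 0.121). In D2 they were Arc (−0.05 to 0.127), Egr1 (−0.027 to 0.026), Egr3 (−0.023 to 0.061), Egr4 (−0.014 to 0.068), Npas4 (−0.20 to 0.04), Nr4a1 (−0.08 to 0.057), Nr4a3 (−0.078 to 0.066) and in D2 females Nr4a2 (−0.112 to 0.349). For the difference in response they were Egr3 (−0.075 to 0.01), Npas4 (−0.018 to 0.337) and Nr4a3 (−0.006 to 0.153). Npas4 had the lowest level of the 8 members in D1 libraries, a mean of 2.68 CPM.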
